A study of Bos taurus with 29 samples.

Results

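The 6 bovine corpus luteum libraries described here, 3 labelled CM_EE_AI and 3 labelled CM_EE, were chosen by their column names in the deposited count table out of 12 corpus luteum libraries and 29 samples in the series. CM_EE_AI stands for corpus luteum given what the labels call CM from endometrial explants cultured with 1 day 7 embryo that developed in vivo, and CM_EE for corpus luteum given CM from explants cultured with no embryo. CM was read as conditioned medium, which the labels do not spell out. The other corpus luteum groups are CM_EE_IVF, whose explants were cultured with a day 7 embryo produced in vitro, and NC, taken as the control. All tissue came from a slaughterhouse, so age, breed and cycle stage are not known here, and all libraries are of polyA RNA. Each group holds 1 library numbered R2, 1 numbered R4 and 1 numbered R5. Whether an R number stands for 1 animal, a pool or a day is not known here, so p-values measure the spread between these libraries. All genes were described, and 18939 of the 19112 in the table passed the filter on low counts.

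The corpus luteum forms from the ovulated follicle and secretes progesterone, the steroid that keeps the uterus receptive. Its large and small steroidogenic cells take up or make cholesterol, carry it into mitochondria and convert it to progesterone under luteinizing hormone, and they lie in one of the densest capillary beds of the body. In cattle the gland regresses when the uterus releases prostaglandin F2alpha, and a ruminant embryo that signals with interferon tau prevents that release. The comparison asks whether corpus luteum RNA differs according to whether an in vivo embryo was present in the explant culture from which the medium came.

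The CM_EE_AI libraries held 17488966 to 22178691 counts and the CM_EE libraries 16536797 to 25747637. Mitochondrially encoded RNA took 52.4% ± 4.45 of counts in CM_EE_AI and 54.1% ± 9.14 in CM_EE (SD, n = 3 each; exact two-sided permutation p = 0.8, the smallest possible being 0.1). Mitochondrial ribosomal RNA took 13.7% ± 0.822 in CM_EE_AI and 16.1% ± 1.92 in CM_EE (n = 3 each, exact permutation p = 0.2). The R numbers set much of the level of many genes, so levels below are given by R number, always in the order R2, R4, R5, as TMM-scaled CPM, that is counts relative to a common library size. Steroidogenic and endothelial markers were present in all 6 libraries: STAR, CYP11A1 and HSD3B1 of luteal cells and KDR of endothelium were each above 100 CPM in every one of them.

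No gene passed the test. The edgeR quasi-likelihood test with the R number as a block called 0 of 18939 genes (0%) at an adjusted p under 0.05, and the lowest adjusted p was 0.992. At an unadjusted p under 0.05 there were 594 genes higher in CM_EE_AI (3.14%) and 271 lower (1.43%), 865 in all, fewer than the 947 that 5% of the genes tested would make. With DESeq2 size factors in place of TMM the split was 392 higher and 337 lower. The split turned round with the 6 libraries alone (164 higher and 336 lower) and with R2 left out of all groups (551 higher and 902 lower). DESeq2's own test called 1 gene, MYO15B, and limma voom called 0. A missed threshold does not show that the groups are alike: standard errors of the fitted log2 differences had a median of 0.35, and the genes below are given as values, not as calls.

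**Figure D1:**
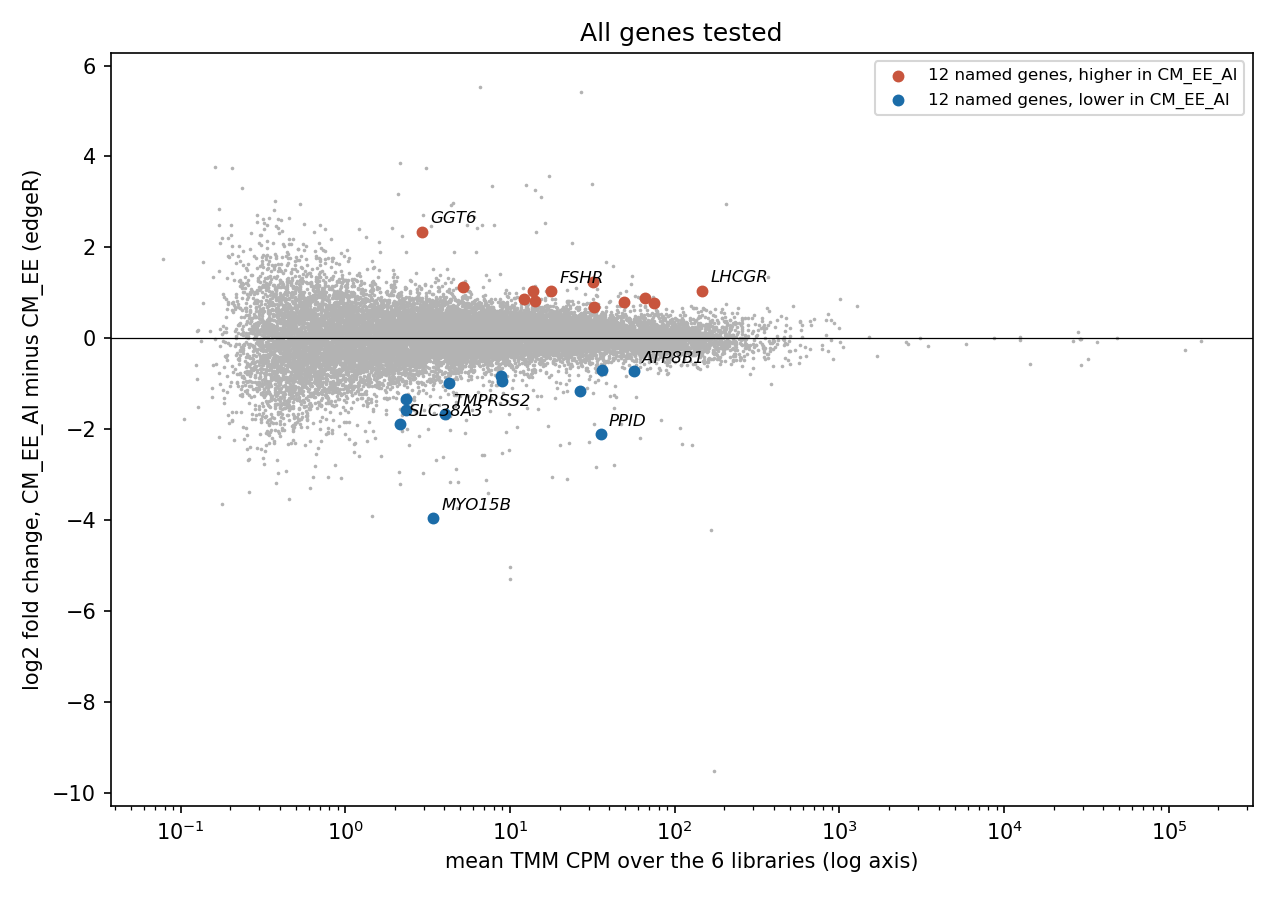
The log2 fold change of every gene tested (CM_EE_AI minus CM_EE, edgeR fit) is plotted against its mean TMM CPM over the 6 libraries on a log axis. Coloured points are the 12 genes named in each direction, which moved the same way in R2, R4 and R5, and 0 genes of the whole cloud passed the adjusted threshold.

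The differences varied widely between R numbers. Within an R number there is 1 library a group, and the difference in log2 CPM had a standard deviation over genes of 1.01 in R2, 1.00 in R4 and 0.86 in R5. Across the 18939 genes, which are not independent replicates, the R2 differences ran against those of R5 (r = -0.369) and of R4 (r = -0.163), while those of R4 and R5 ran together weakly (r = 0.213). In R2, R4 and R5 alike, 2720 genes were higher in CM_EE_AI (14.4%) and 1429 were lower (7.55%). All 3 CM_EE_AI libraries lay above all 3 CM_EE libraries for 367 genes (1.94%) and below them for 266 (1.4%). The CM_EE_AI libraries lay above all 9 other corpus luteum libraries for 17 genes (0.0898%) and below all 9 for 5 (0.0264%).

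Both gonadotropin receptors were higher in CM_EE_AI at each R number, by sizes that varied between the numbers. LHCGR, the luteinizing hormone receptor, had 67.8, 230 and 298 CPM in CM_EE_AI libraries, against 54.0, 64.0 and 171 CPM in CM_EE libraries (log2 fold change 1.04, 95% interval 0.46 to 1.63). The gap was widest at R4, and the groups overlap: the R2 library of CM_EE_AI sat below the R5 library of CM_EE. FSHR, the follicle-stimulating hormone receptor of granulosa cells, had 17.1, 22.8 and 30.0 CPM in CM_EE_AI libraries and 5.83, 10.3 and 20.7 CPM in CM_EE libraries (log2 fold change 1.04, interval 0.52 to 1.55). The R2 library of CM_EE_AI, its lowest, lay under the R5 library of CM_EE. At each R number FSHR in CM_EE_AI also exceeded CM_EE_IVF (11, 16.4 and 23.4 CPM) and NC (11.3, 11.4 and 16.9 CPM), as 223 genes did (1.18% of those tested). LHCGR did so at R4 and R5 but not at R2, where CM_EE_IVF had 98.3 CPM.

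The wider list of luteal hormone receptors and signalling genes held 25 tested members, of which 15 were higher and 10 lower in CM_EE_AI, and 0 passed the test. Its median log2 fold change was 0.17, against 0.05 over all genes tested. Of the 25, 10 (40%) were higher at every R number and 0 were lower at every one, against 14.4% and 7.55% of all genes. ESR1, an oestrogen receptor, had 22.3, 36.3 and 35.2 CPM in CM_EE_AI and 14.5, 24.5 and 26.3 CPM in CM_EE. PRLR, the prolactin receptor, had 7.99, 206 and 41.2 CPM in CM_EE_AI and 5.13, 117 and 33.0 CPM in CM_EE. Both were higher in CM_EE_AI at each R number, and R4 stood far above the other numbers for PRLR in both groups.

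PTGFR, the prostaglandin F2alpha receptor, had 125, 682 and 123 CPM in CM_EE_AI libraries and 120, 378 and 105 CPM in CM_EE libraries. Its log2 difference was 0.06 at R2, 0.85 at R4 and 0.23 at R5, and its log2 fold change was 0.45 (interval -0.29 to 1.19). With only the CM_EE_AI library of R4 left out, and the other R4 libraries kept in the fit, the value was -0.06. OXT, the luteal peptide oxytocin, had 103, 58.0 and 9.21 CPM in CM_EE_AI and 71.0, 42.1 and 5.62 CPM in CM_EE, higher in CM_EE_AI at each R number by a log2 difference of 0.53, 0.46 and 0.70. The oxytocin receptor OXTR was low, at 1.79, 0.227 and 0.429 CPM in CM_EE_AI and 0.0996, 1.01 and 1.98 CPM in CM_EE, higher in CM_EE_AI at R2 and lower at R4 and R5. The progesterone receptor PGR had 5.92, 4.19 and 5.01 CPM in CM_EE_AI and 5.58, 4.66 and 6.99 CPM in CM_EE, with no common direction.

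**Figure D2:**
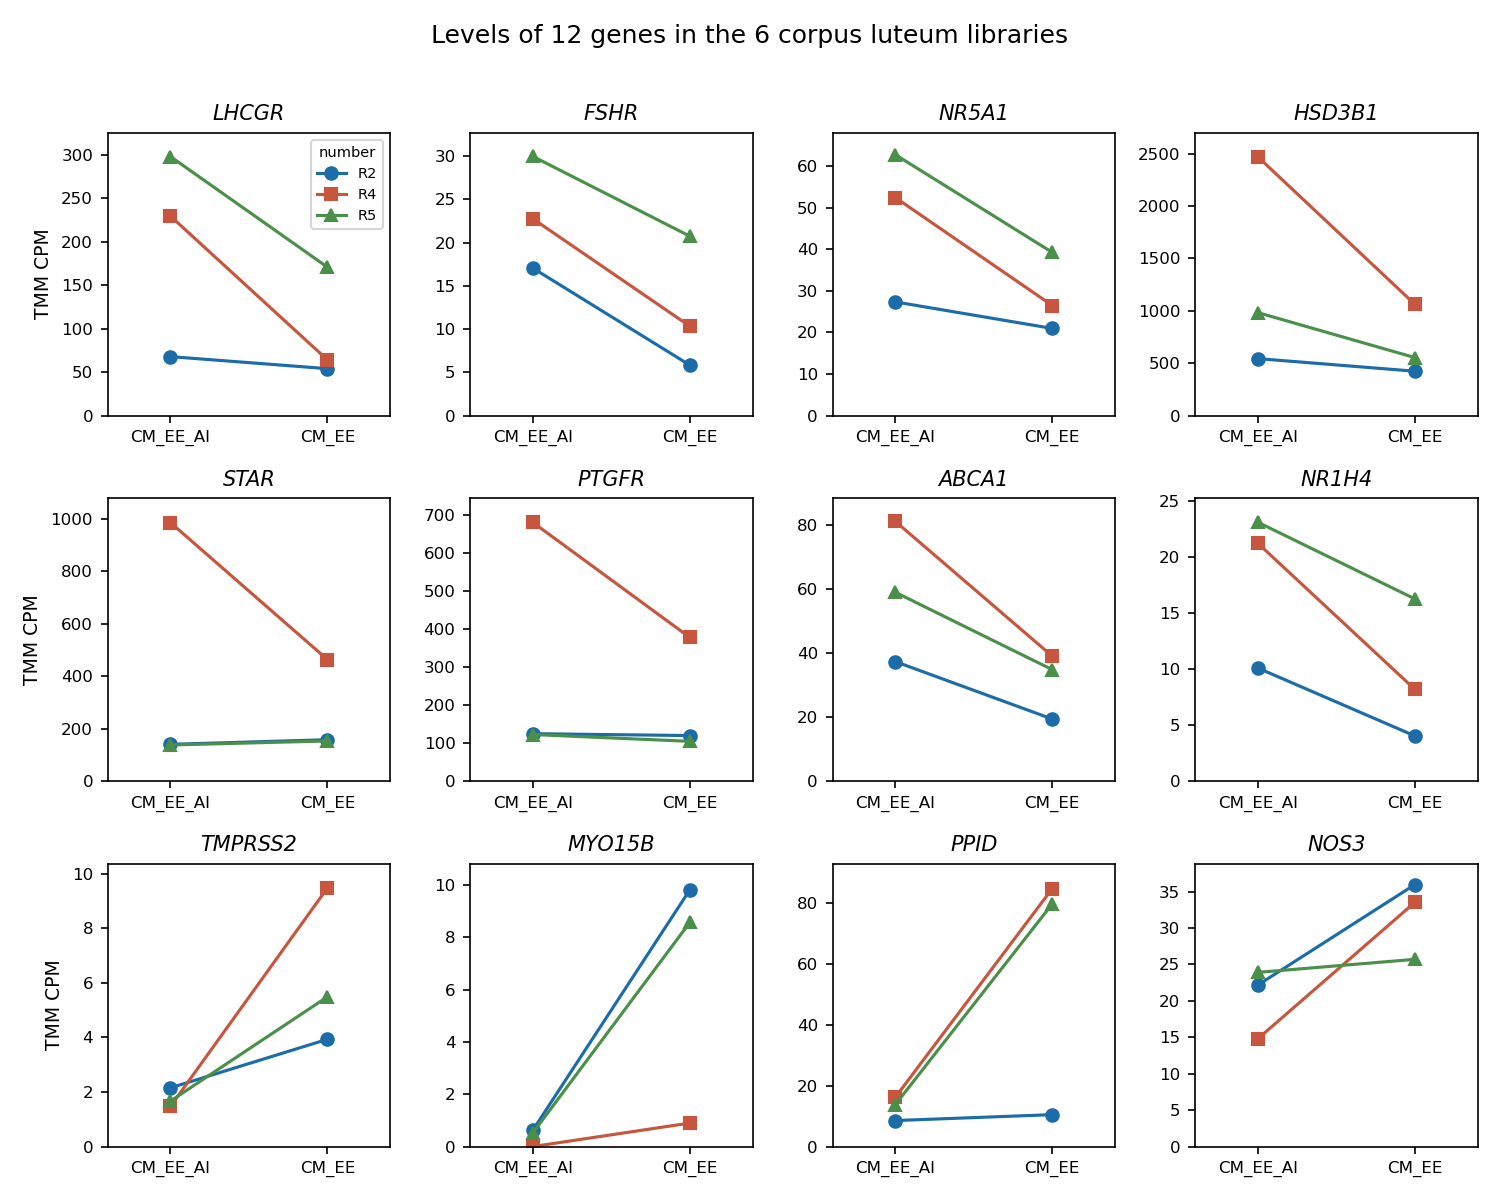
TMM CPM of 12 genes in each of the 6 libraries, CM_EE_AI at the left and CM_EE at the right of each panel, with a line joining the libraries of the same R number. LHCGR, FSHR, NR5A1, HSD3B1, ABCA1 and NR1H4 slope down to CM_EE at all 3 numbers, PTGFR does so mainly at R4, STAR does so at R4 and slopes up to CM_EE at R2 and R5, and TMPRSS2, MYO15B, PPID and NOS3 slope up to CM_EE.

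Genes of progesterone synthesis differed in whether they kept 1 direction over the R numbers. HSD3B1, which converts pregnenolone to progesterone, had 543, 2470 and 983 CPM in CM_EE_AI libraries, against 423, 1063 and 554 CPM in CM_EE libraries (log2 fold change 0.86, interval 0.16 to 1.57). NR5A1, the nuclear receptor SF-1 that drives steroidogenic genes, had 27.4, 52.5 and 62.8 CPM in CM_EE_AI and 21.0, 26.5 and 39.3 CPM in CM_EE (log2 fold change 0.70, interval 0.26 to 1.13). Both were higher in CM_EE_AI at each R number, with the smallest gap at R2. GATA4, another steroidogenic transcription factor, had 29.7, 37.8 and 26.2 CPM in CM_EE_AI and 21.6, 25.8 and 18.8 CPM in CM_EE, groups that do not overlap, by a margin of under 1 CPM. GATA4 had 30.2, 31.45 and 24.67 CPM in CM_EE_IVF and 46.85, 32.7 and 19.35 CPM in NC. Both groups overlapped CM_EE_AI, and the R2 library of NC was above every CM_EE_AI library.

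STAR, which moves cholesterol into mitochondria, had 140, 986 and 138 CPM in CM_EE_AI libraries, against 158, 463 and 153 CPM in CM_EE libraries. It was lower in CM_EE_AI at R2 and R5 and higher at R4, so its log2 fold change was 0.38 (interval -0.50 to 1.26) with the CM_EE_AI R4 library and -0.33 without it. CYP11A1, the cholesterol side-chain cleavage enzyme, had 287, 1103 and 225 CPM in CM_EE_AI and 298, 575 and 177 CPM in CM_EE. Its log2 difference was -0.05 at R2, 0.94 at R4 and 0.35 at R5. Leaving out only the CM_EE_AI R4 library, with the other R4 libraries kept, took its log2 fold change to -0.03, against 0.49 with it. Of the 25 steroidogenesis genes tested, 17 were higher and 8 lower in CM_EE_AI, and 0 passed the test. At every R number 5 (20%) were higher and 2 (8%) lower, against 14.4% and 7.55% of all genes. The groups did not overlap for 1 higher and 2 lower genes of the list. The share higher by the fit was 68%, against 55.4% of all genes. The list's median was 0.25, with -0.05 within R2, 0.21 within R4 and 0.22 within R5, and -0.02 without the CM_EE_AI R4 library.

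Cholesterol synthesis genes pointed 1 way by the fit, at sizes that differed between R numbers. All 23 of its measured enzymes and regulators had a log2 fold change above 0, as 55.4% of all genes did, between 0.12 and 0.79 with a median of 0.45. At every R number 12 (52.2%) were higher, against 14.4% of all genes. None passed the test, and the median within an R number was 0.04 in R2, 0.68 in R4 and 0.46 in R5. EBP, a sterol isomerase, had 4.58, 20.9 and 8.16 CPM in CM_EE_AI and 3.04, 9.37 and 5.80 CPM in CM_EE (log2 fold change 0.79, interval 0.13 to 1.44). CYP51A1, lanosterol demethylase, had 48.9, 332 and 136 CPM in CM_EE_AI and 41.2, 183 and 92.9 CPM in CM_EE. MVD, a mevalonate pathway decarboxylase, had 14.1, 35.6 and 28.4 CPM in CM_EE_AI and 11.1, 22.2 and 16.8 CPM in CM_EE. Each of the 3 was higher in CM_EE_AI at every R number with overlapping groups, and R2 was the lowest number in both groups. Without the CM_EE_AI R4 library the list's median was 0.10.

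Cholesterol handling was more mixed, with 15 of 19 members higher, 4 lower and a median of 0.12. At every R number 3 (15.8%) were higher and 1 (5.26%) lower, against 14.4% and 7.55% of all genes. ABCA1, which exports cholesterol to lipoproteins, had 37.3, 81.1 and 59.0 CPM in CM_EE_AI libraries and 19.4, 39.0 and 34.8 CPM in CM_EE libraries (log2 fold change 0.93, interval 0.39 to 1.47). It was above CM_EE, CM_EE_IVF and NC at each R number, and only the R2 library of CM_EE_AI fell among the CM_EE values. LRP1, an endocytic lipoprotein receptor, had 86.1, 157 and 252 CPM in CM_EE_AI and 59.8, 84.2 and 165 CPM in CM_EE. Its R numbers kept the same order in both groups, with R5 highest. SCARB1, a receptor for high-density lipoprotein, had 293, 688 and 303 CPM in CM_EE_AI and 299.7, 469.5 and 209 CPM in CM_EE, higher in CM_EE_AI at R4 and R5 but not at R2. APOE, a lipoprotein component, had 43.2, 109.6 and 75.9 CPM in CM_EE_AI and 44.7, 59.7 and 54.0 CPM in CM_EE, with the same pattern. NR1H4, the bile acid receptor FXR, had 10.1, 21.2 and 23.1 CPM in CM_EE_AI and 4.03, 8.19 and 16.3 CPM in CM_EE (log2 fold change 1.04, interval 0.47 to 1.61), and was the highest of the 4 groups at each R number.

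The summed cell type markers differed alongside these genes. The 10 luteal steroidogenic markers, which include STAR, CYP11A1, HSD3B1 and LHCGR, were all higher in CM_EE_AI by the fit (median 0.43), and together held 1530, 6080 and 2120 CPM in CM_EE_AI libraries, against 1410, 2960 and 1410 CPM in CM_EE libraries. The 14 endothelial markers were all lower by the fit (median -0.19), but 0 of 14 were lower at every R number. Their sum was 3640, 1450 and 1540 CPM in CM_EE_AI and 4750, 1950 and 1350 CPM in CM_EE, lower in CM_EE_AI at R2 and R4 and higher at R5, and no endothelial marker was at 0 in any of the 6 libraries. Fewer cells of a type and less RNA per cell cannot be told apart in such libraries, and the part of cell makeup in the steroidogenic and cholesterol values was not tested.

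Fibroblast markers summed higher in CM_EE_AI at all 3 numbers. The 10 fibroblast markers tested (9 higher, 1 lower, median 0.44) summed to 783, 602 and 411 CPM in CM_EE_AI libraries and 645, 364 and 342 CPM in CM_EE libraries. The 11 smooth muscle and pericyte markers (10 higher, 1 lower, median 0.22) summed to 456, 532 and 355 CPM in CM_EE_AI and 487, 445 and 284 CPM in CM_EE. The 7 granulosa or theca markers, of which 6 were higher, summed to 174, 371 and 227 CPM in CM_EE_AI and 171, 344 and 166 CPM in CM_EE. Macrophage markers summed to 30.6 to 34.5 CPM in CM_EE_AI and 26.6 to 33.5 CPM in CM_EE, and T or natural killer cell markers to 13.6 to 30.9 CPM in CM_EE_AI and 17.2 to 26.3 CPM in CM_EE. B cell, neutrophil and red cell markers were lower still in R4 and R5, where each of these lists summed to under 8 CPM in both groups. The 5 adipocyte markers (2 higher, 3 lower) had a median of -0.45, with 0.78 within R2, -1.31 within R4 and -0.89 within R5. Their sum ran the other way, at 14.7, 210 and 29.8 CPM in CM_EE_AI and 9.66, 85.4 and 23.5 CPM in CM_EE. Most of that sum was LPL, at 12.9, 209 and 27.7 CPM in CM_EE_AI and 8.52, 83.7 and 20.0 CPM in CM_EE.

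**Figure D3:**
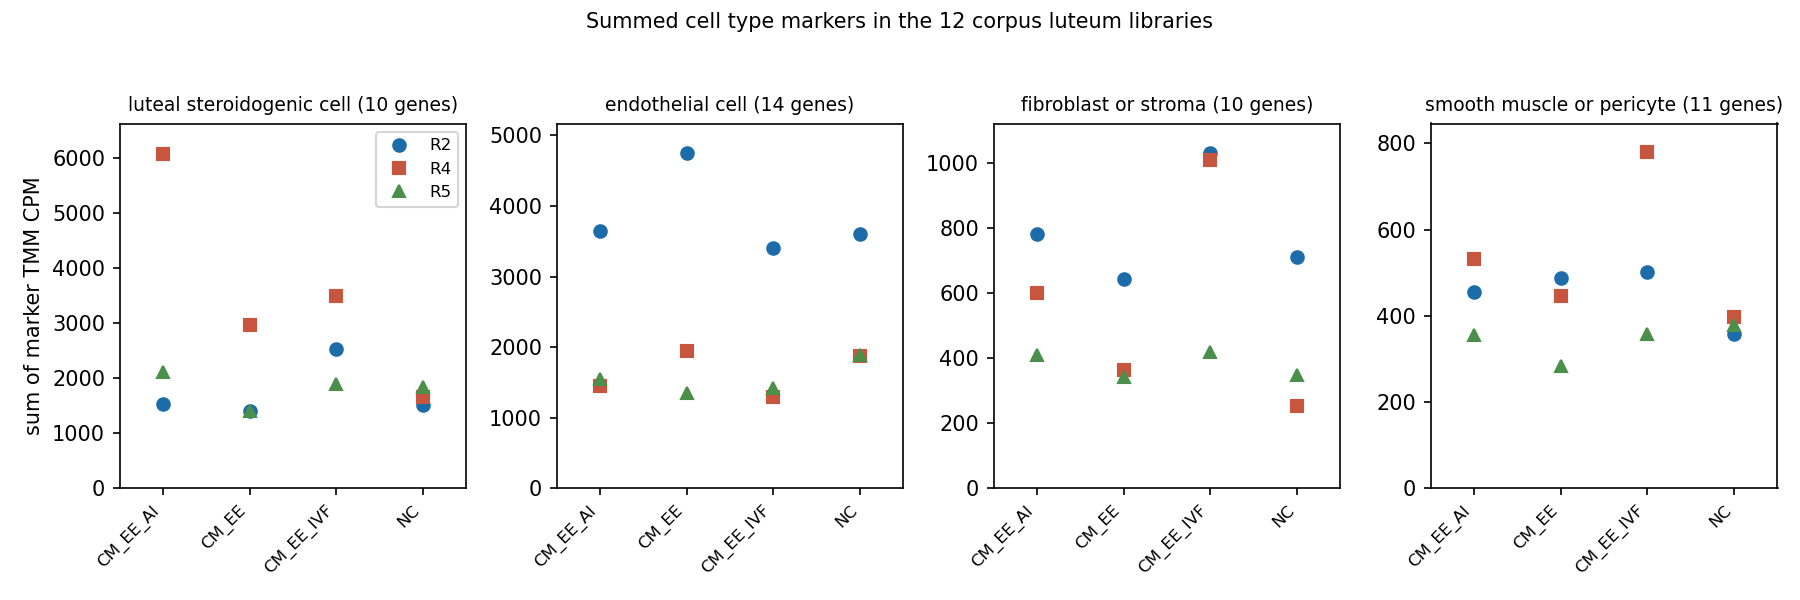
Summed TMM CPM of 4 cell type marker lists in each corpus luteum library, by group (CM_EE_AI, CM_EE, CM_EE_IVF, NC) and R number. The R4 library of CM_EE_AI has the highest luteal steroidogenic sum (6080 CPM), and the R2 libraries have the highest endothelial sums in all 4 groups.

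Vascular genes had lower medians at R2 and R4 and a higher one at R5. Of 27 angiogenic ligands and receptors tested, 7 were higher and 20 lower in CM_EE_AI, with a median of -0.12, and 4 (14.8%) were lower at every R number, against 7.55% of all genes. The list's median was -0.20 within R2, -0.35 within R4 and 0.20 within R5, and its sum was 3930, 2520 and 2160 CPM in CM_EE_AI and 4880, 3100 and 1900 CPM in CM_EE. VEGFC, a lymphangiogenic and angiogenic ligand, had 61.9, 45.3 and 20.8 CPM in CM_EE_AI and 91.4, 60.2 and 25.0 CPM in CM_EE. FGF2, a mitogen of luteal endothelium, had 4.76, 5.95 and 4.63 CPM in CM_EE_AI and 8.42, 12.5 and 5.23 CPM in CM_EE. Both were lower in CM_EE_AI at each number, least so at R5. NOS3, the endothelial nitric oxide synthase, had 22.2, 14.8 and 23.9 CPM in CM_EE_AI libraries and 36.0, 33.5 and 25.7 CPM in CM_EE libraries, without overlap (log2 fold change -0.64, interval -1.20 to -0.07). NOS3 had 19.1, 22.3 and 22.5 CPM in CM_EE_IVF, within the range of CM_EE_AI, and 20.5, 38.1 and 26.0 CPM in NC. MYCT1, expressed mainly in endothelium, had 25.4, 25.3 and 32.0 CPM in CM_EE_AI and 47.0, 48.3 and 38.0 CPM in CM_EE, again without overlap (log2 fold change -0.71, interval -1.16 to -0.26). MYCT1 had 28.9, 23.1 and 33.8 CPM in CM_EE_IVF and 35.4, 50.4 and 51.9 CPM in NC, so the CM_EE_IVF libraries lay in or just around the range of CM_EE_AI.

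The major receptors did not stand apart. KDR, the main VEGF receptor, had 463, 370 and 366 CPM in CM_EE_AI and 519, 471 and 318 CPM in CM_EE. The angiopoietin receptor TEK had 29.0, 36.9 and 65.4 CPM in CM_EE_AI and 27.5, 50.6 and 58.9 CPM in CM_EE. The ligand VEGFA had 102, 200.1 and 47.5 CPM in CM_EE_AI and 131, 141 and 35.1 CPM in CM_EE, and none of the 3 kept 1 direction over the R numbers. The endothelial markers CLDN5, ERG and ROBO4 had log2 fold changes of -0.53, -0.34 and -0.36, each with an interval that includes 0. MCAM, on endothelium and pericytes, was counted here with the smooth muscle and pericyte markers, as the 1 lower gene of 11. It was lower at every R number at 23.1, 9.85 and 6.39 CPM in CM_EE_AI and 29.4, 19.5 and 8.61 CPM in CM_EE. GATA2, a factor of endothelial and blood cells, was counted here as a mast cell marker, in a list with 2 higher and 2 lower of 4. GATA2 had 7.76, 3.74 and 11.7 CPM in CM_EE_AI and 9.81, 16.5 and 15.0 CPM in CM_EE. Lymphatic endothelial markers were mixed, with 2 of 5 higher, 3 lower and a median of -0.14. The chemokine CCL21 was higher at each number, at 47.8, 7.19 and 35.1 CPM in CM_EE_AI and 29.6, 3.09 and 33.4 CPM in CM_EE. PROX1 was lower at each number, at 71.8, 27.5 and 50.4 CPM in CM_EE_AI and 74.6, 47.1 and 52.9 CPM in CM_EE. ANGPT2 was not analysed here.

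PDGFRA, the platelet-derived growth factor receptor of fibroblasts, had 26.2, 16.1 and 20.3 CPM in CM_EE_AI and 14.4, 8.31 and 15.3 CPM in CM_EE (log2 fold change 0.74, interval 0.01 to 1.46). The groups do not overlap, and at each number CM_EE_IVF was higher still, at 32.7, 23.5 and 24.7 CPM. Matrix genes were divided, with 14 higher and 12 lower of 26 and a median of 0.04. LAMB1, a laminin chain, had 199, 243 and 231 CPM in CM_EE_AI and 177, 160 and 158 CPM in CM_EE, without overlap. COL1A1, a chain of type I collagen, had 259.9, 123 and 135 CPM in CM_EE_AI and 187, 118 and 117 CPM in CM_EE. The proteoglycan DCN had 48.0, 47.3 and 22.9 CPM in CM_EE_AI and 45.6, 30.0 and 17.8 CPM in CM_EE. Both were higher in CM_EE_AI at each number, with little gap at R4 for COL1A1 and at R2 for DCN. LUM, another proteoglycan, had 75.3, 194 and 62.3 CPM in CM_EE_AI and 82.7, 70.2 and 49.8 CPM in CM_EE, with R4 apart. The contractile genes CNN1 and MYL9 had log2 fold changes of 0.81 and 0.49 and were higher at every number. Of 18 matrix proteases and inhibitors, 7 were higher and 11 lower (median -0.11), and MMP2, a gelatinase, had 30.3, 17.8 and 17.8 CPM in CM_EE_AI and 24.1, 22.2 and 14.2 CPM in CM_EE. TIMP1 was not analysed here.

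Growth factor families showed little common direction. In the TGF-beta family 11 of 29 genes were higher and 18 lower (median -0.12), and in the insulin-like growth factor system 9 of 17 were higher and 8 lower (median 0.02). SMAD3, which carries TGF-beta and activin signals, had 156, 93.4 and 54.6 CPM in CM_EE_AI and 292, 175 and 52.1 CPM in CM_EE, lower at R2 and R4 but not at R5. TGFBR3, a TGF-beta and inhibin co-receptor, had 107, 322 and 207 CPM in CM_EE_AI and 101, 179 and 145 CPM in CM_EE. IGF1 had 6.46, 3.91 and 5.30 CPM in CM_EE_AI and 4.38, 1.80 and 5.67 CPM in CM_EE, higher in CM_EE_AI at R2 and R4 only.

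Of 25 luteolysis-associated genes, 10 were higher and 15 lower in CM_EE_AI (median -0.16), and among 22 NF-kB targets and cytokines 13 were higher and 9 lower (median 0.15). The interleukin-1 ligands pointed in opposite directions, both at low levels. IL1A had 10.1, 3.85 and 0.191 CPM in CM_EE_AI and 11.6, 11 and 1.45 CPM in CM_EE (log2 fold change -1.19, interval -2.22 to -0.15). IL1B had 2.47, 1.76 and 0.430 CPM in CM_EE_AI and 1.10, 0.505 and 0.0439 CPM in CM_EE (log2 fold change 1.77, interval 0.29 to 3.26). Both kept their direction at each R number, and both were lowest at R5 in each group. RELB, an NF-kB subunit, was lower at every number, at 16.6, 11.6 and 10.3 CPM in CM_EE_AI and 19.0, 22.3 and 13.8 CPM in CM_EE. EDN1, the vasoconstrictor endothelin-1, had 3.27, 3.57 and 1.72 CPM in CM_EE_AI and 2.49, 7.52 and 2.33 CPM in CM_EE. The chemokine CCL2 had 23.7, 40.6 and 13.7 CPM in CM_EE_AI and 14.1, 46.4 and 10.98 CPM in CM_EE, and neither kept 1 direction.

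Prostaglandin genes were split 8 higher to 7 lower of 15 tested, with a median of 0.06. PTGIS, prostacyclin synthase, had 18.3, 41.6 and 54.4 CPM in CM_EE_AI and 17.5, 26.2 and 29.1 CPM in CM_EE. TBXAS1, thromboxane synthase, had 16.42, 12.7 and 14.1 CPM in CM_EE_AI and 16.43, 33.3 and 19.4 CPM in CM_EE. PTGIS was higher and TBXAS1 lower in CM_EE_AI at each number, with almost no gap at R2 for either. PTGS2, the inducible cyclooxygenase, had 2.20, 21.3 and 2.53 CPM in CM_EE_AI and 3.04, 19.7 and 1.10 CPM in CM_EE, with R4 far above R2 and R5 in both groups.

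Interferon-stimulated genes, the usual readout of interferon tau, had 27 of 38 tested members higher, 11 lower and a median log2 fold change of 0.23, and 0 passed the test. ISG15, an antiviral ubiquitin-like protein, had 21.6, 41.6 and 21.6 CPM in CM_EE_AI and 24.6, 41.8 and 17.8 CPM in CM_EE, and did not differ in a common direction. The antiviral GTPase MX1 had 15.1, 183 and 76.6 CPM in CM_EE_AI and 14.3, 123 and 80.9 CPM in CM_EE. MX2, a related GTPase, had 3.77, 3.85 and 4.58 CPM in CM_EE_AI and 1.05, 4.43 and 3.69 CPM in CM_EE. RSAD2, the antiviral enzyme viperin, had 3.95, 7.70 and 8.26 CPM in CM_EE_AI and 1.39, 9.37 and 5.89 CPM in CM_EE. Both were higher in CM_EE_AI at R2 and R5 and lower at R4. IFI6 had 7.09, 388 and 51.4 CPM in CM_EE_AI and 7.47, 187 and 27.7 CPM in CM_EE, a range across R numbers far wider than the gap between groups. DDX58, the RNA sensor RIG-I, had 24.0, 51.0 and 38.0 CPM in CM_EE_AI and 21.5, 31.5 and 29.5 CPM in CM_EE. IFI44 and IFI27 were likewise higher at every number, with log2 fold changes of 0.56 and 0.54. OAS1Y had 6.10, 24.1 and 12.9 CPM in CM_EE_AI and 4.68, 18.1 and 10.6 CPM in CM_EE, higher at each number, but shares sequence with close copies and is uncertain. Without the CM_EE_AI R4 library the list's median was 0.08.

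Antigen presentation genes were 13 higher and 7 lower of 20, with a median of 0.09. NLRC5, the activator of class I genes, had 62.9, 42.6 and 57.3 CPM in CM_EE_AI and 96.2, 105 and 59.1 CPM in CM_EE (log2 fold change -0.65, interval -1.23 to -0.06). The class II chaperone genes BOLA-DOB and BOLA-DMB diverged, at log2 fold changes of -3.21 and 1.53. BOLA-DOB had 0.269, 0.453 and 0.477 CPM in CM_EE_AI and 3.88, 0.449 and 7.43 CPM in CM_EE, so R4 showed no gap, and BOLA-DMB had 10.6, 3.51 and 3.58 CPM in CM_EE_AI and 1.05, 2.19 and 3.78 CPM in CM_EE, so the gap lay at R2. Reads of the BOLA genes can be shared between relatives, and both values are uncertain.

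Complement genes varied in direction. C1S, a protease of the classical pathway, had 16.4, 139 and 42.8 CPM in CM_EE_AI and 14.6, 43.2 and 23.6 CPM in CM_EE (log2 fold change 0.99, interval 0.33 to 1.65). It was higher in CM_EE_AI at each number, chiefly at R4. C4A had 39.2, 114 and 135 CPM in CM_EE_AI and 30.4, 51.8 and 80.5 CPM in CM_EE, and is uncertain because near-identical copies can share its reads. Of 22 complement genes 12 were higher and 10 lower, with a median of 0.17. At every number 8 (36.4%) were higher and 1 (4.55%) lower, against 14.4% and 7.55% of all genes. The lower gene was C1QB, also counted as a macrophage marker. It had 1.03, 2.38 and 2.20 CPM in CM_EE_AI and 2.59, 2.64 and 3.03 CPM in CM_EE, without overlap. Of 11 macrophage markers 6 were higher and 5 lower. Among them MRC1, a macrophage mannose receptor, had 9.11, 9.80 and 9.45 CPM in CM_EE_AI and 6.23, 3.93 and 9.14 CPM in CM_EE. Its CM_EE_AI level was the highest of the 4 groups at each number.

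**Figure D4:**
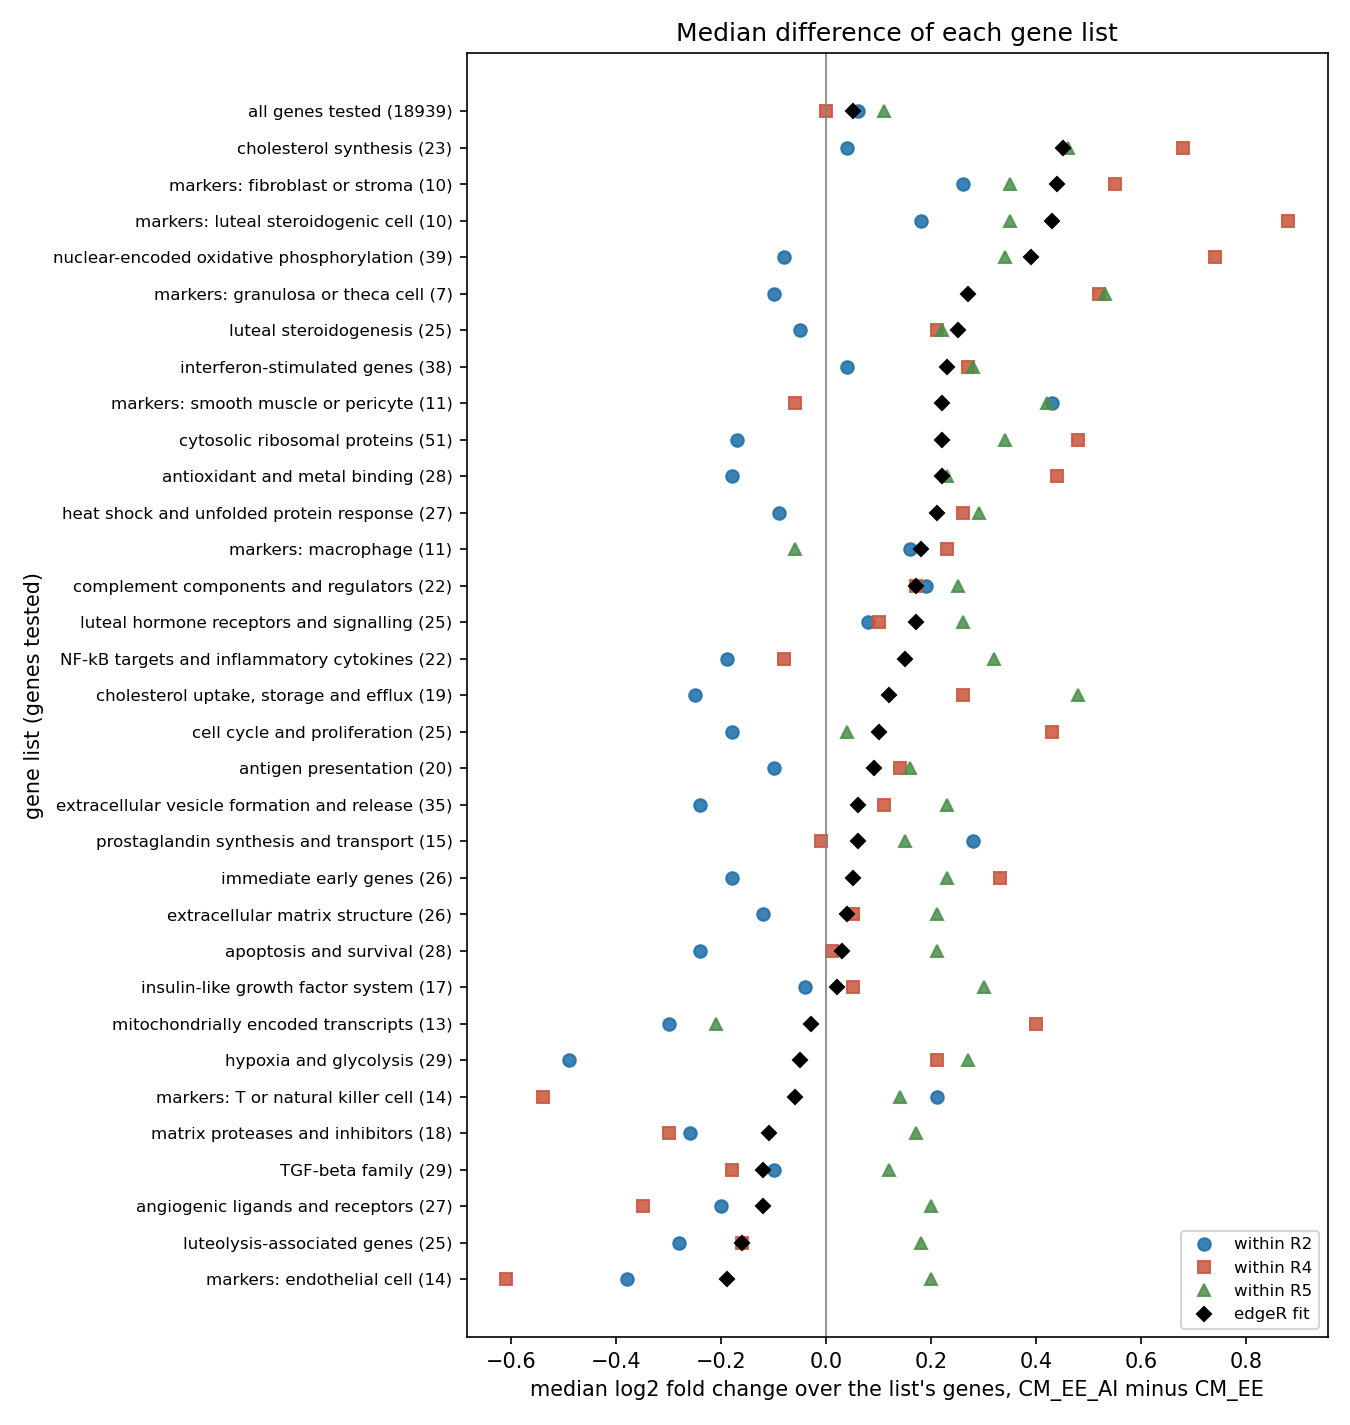
Median log2 fold change (CM_EE_AI minus CM_EE) of gene lists described here, from the edgeR fit (diamonds) and within R2, R4 and R5 (circles, squares and triangles), with the number of genes tested in brackets. Adipocyte (median -0.45), B cell, neutrophil and red cell markers are not plotted. All genes tested stand at the top with a median of 0.05, cholesterol synthesis has the highest median of the lists plotted (0.45) and endothelial markers the lowest (-0.19), and the R numbers of many lists fall on both sides of 0.

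Nuclear-encoded genes of oxidative phosphorylation were higher in 38 of 39 cases (97.4%, against 55.4% of all genes), with a median of 0.39. At every number 12 (30.8%) were higher, against 14.4% of all genes. The median was -0.08 within R2, 0.74 within R4 and 0.34 within R5. NDUFS1, a core subunit of complex I, had 10.1, 23.2 and 16.99 CPM in CM_EE_AI and 7.22, 11.8 and 11.8 CPM in CM_EE. NDUFB8, an accessory subunit, had 6.51, 16.4 and 6.68 CPM in CM_EE_AI and 7.17, 6.51 and 2.90 CPM in CM_EE. The R4 library of CM_EE_AI was the highest of the 6 for both. The 13 mitochondrially encoded transcripts did not share that lean, with 4 higher, 9 lower and a median of -0.03. Cytosolic ribosomal protein genes were higher in 47 of 51 cases (median 0.22), again with R2 (-0.17) opposite to R4 (0.48) and R5 (0.34). Only 6 of the 51 (11.8%) were higher at every number, less than the 14.4% of all genes.

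Among 28 antioxidant genes 19 were higher and 9 lower (median 0.22), and 4 (14.3%) were higher at every number, against 14.4% of all genes. CAT, catalase, had 18.03, 37.9 and 22.4 CPM in CM_EE_AI and 11.6, 23.9 and 17.1 CPM in CM_EE, higher at each number. GSTM1 had a log2 fold change of 0.67 and belongs to a family of close copies, so its value is uncertain. Heat shock and unfolded protein response genes were 19 higher and 8 lower of 27 (median 0.21), but only 2 (7.41%) were higher at every number. HSP90B1, an endoplasmic reticulum chaperone, had 497, 1633 and 389 CPM in CM_EE_AI and 523, 859 and 302 CPM in CM_EE. Hypoxia and glycolysis genes were 14 higher and 15 lower of 29 (median -0.05). HK1, a hexokinase, had 104, 43.3 and 41.4 CPM in CM_EE_AI and 160, 72.0 and 37.4 CPM in CM_EE, with R5 opposite to R2 and R4.

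Lists tied to vesicles, cell death and growth showed no common lean. Of 35 genes of extracellular vesicle formation and release, 20 were higher and 15 lower (median 0.06). VPS28, a subunit of the ESCRT machinery that forms vesicles, had 9.96, 18.7 and 15.5 CPM in CM_EE_AI and 7.77, 13.6 and 8.08 CPM in CM_EE. SDCBP, the vesicle adaptor syntenin, had 148, 186 and 77.8 CPM in CM_EE_AI and 244, 265 and 81.8 CPM in CM_EE. VPS28 was higher and SDCBP lower in CM_EE_AI at each number, and CD82, a tetraspanin, was higher at each with a log2 fold change of 0.44. The vesicle tetraspanin CD63 had 84.3, 213 and 58.9 CPM in CM_EE_AI and 93.3, 92.3 and 40.2 CPM in CM_EE, and CD9 had 90.2, 57.9 and 20.6 CPM in CM_EE_AI and 133, 53.8 and 18.3 CPM in CM_EE.

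Of 28 apoptosis and survival genes 17 were higher and 11 lower (median 0.03). BCL2, which restrains apoptosis, had 32.0, 23.7 and 27.0 CPM in CM_EE_AI and 37.7, 52.4 and 25.7 CPM in CM_EE. BAX, which promotes it, had 4.53, 4.30 and 4.15 CPM in CM_EE_AI and 4.18, 8.03 and 3.91 CPM in CM_EE. The death receptor FAS had 4.84, 4.42 and 2.19 CPM in CM_EE_AI and 5.53, 3.93 and 2.11 CPM in CM_EE. None of the 3 kept 1 direction over the R numbers. Immediate early genes were 15 higher and 11 lower of 26 (median 0.05). FOS had 128, 436 and 75.9 CPM in CM_EE_AI and 126, 263 and 55.3 CPM in CM_EE, higher at each number with almost no gap at R2, and NR4A1 had 82.2, 171 and 36.7 CPM in CM_EE_AI and 97.6, 143 and 31.7 CPM in CM_EE, higher at R4 and R5 but not at R2. Cell cycle genes were 16 higher and 9 lower of 25 (median 0.10). CCNB2, a mitotic cyclin, had 3.90, 0.623 and 1.72 CPM in CM_EE_AI and 6.08, 3.65 and 3.73 CPM in CM_EE (log2 fold change -1.27, interval -2.20 to -0.34), lower at each number.

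The 12 genes named in each direction had the lowest unadjusted p among those that moved the same way at R2, R4 and R5, and 0 of them passed the adjusted threshold. Higher in CM_EE_AI were LHCGR, FSHR, NR1H4 and C4A, given above, and CLHC1, WDR19, GRB14, PCYT1B, FMN1, ZMYM3, ZMAT4 and GGT6. GRB14, an adaptor that restrains the insulin receptor, had 18.2, 34.1 and 70.1 CPM in CM_EE_AI and 12.2, 22.5 and 38.3 CPM in CM_EE (log2 fold change 0.69, interval 0.33 to 1.05). PCYT1B, an enzyme of phosphatidylcholine synthesis, had 7.18, 4.59 and 9.59 CPM in CM_EE_AI and 2.44, 2.53 and 4.88 CPM in CM_EE (log2 fold change 1.13, interval 0.52 to 1.74). For GRB14 the R2 and R4 libraries of CM_EE_AI fell below the R5 library of CM_EE, and for PCYT1B the R4 library of CM_EE_AI fell below the R5 library of CM_EE.

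WDR19, an intraflagellar transport protein, had 29.9, 38.8 and 119 CPM in CM_EE_AI and 18.6, 21.8 and 66.2 CPM in CM_EE, and FMN1, an actin-nucleating formin, had 40.6, 41.9 and 164 CPM in CM_EE_AI and 21.9, 18.1 and 112 CPM in CM_EE. R5 was far above R2 and R4 for both genes in both groups. GGT6, of the gamma-glutamyltransferase family, had the largest fold of the 12 at 0.763, 10.9 and 3.63 CPM in CM_EE_AI and 0.349, 1.07 and 0.879 CPM in CM_EE (log2 fold change 2.34, interval 1.02 to 3.67). CLHC1, ZMYM3 and ZMAT4 had log2 fold changes of 0.86, 0.83 and 1.25. The groups overlapped for each of the 12.

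Lower in CM_EE_AI were MYCT1, given above, and MYO15B, TMPRSS2, SLC38A3, ATP8B1, PPID, C8H8orf74, IQCA1, TRIM36, SLC35A3, SFI1 and GSTO2. TMPRSS2, a membrane serine protease, had 2.15, 1.47 and 1.67 CPM in CM_EE_AI libraries, against 3.93, 9.49 and 5.49 CPM in CM_EE libraries (log2 fold change -1.67, interval -2.48 to -0.86). It had 3.23, 9.33 and 3.90 CPM in CM_EE_IVF and 5.02, 9.94 and 4.92 CPM in NC. All 3 CM_EE_AI libraries were below the other 9, which 0.0264% of genes tested shared. TPGS1, a subunit of the tubulin polyglutamylase complex picked after its values were seen, was above the other 9, with 3.63, 3.96 and 4.10 CPM in CM_EE_AI and 1.49, 1.91 and 2.11 CPM in CM_EE.

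MYO15B, an unconventional myosin gene, had 0.628, 0 and 0.525 CPM in CM_EE_AI, against 9.81, 0.898 and 8.57 CPM in CM_EE (log2 fold change -3.96, interval -5.83 to -2.08). The R2 and R5 libraries of CM_EE stood apart from all other libraries, since CM_EE_IVF had 0.552, 0.686 and 0.728 CPM and NC 0.251, 0.460 and 0.575 CPM. DESeq2, with the same block, called MYO15B at an adjusted p of 0.00353. PPID, a cyclophilin that works with HSP90, had 8.52, 16.1 and 13.7 CPM in CM_EE_AI and 10.5, 84.6 and 79.6 CPM in CM_EE (log2 fold change -2.11, interval -3.37 to -0.86). Here R4 and R5 of CM_EE were high, while CM_EE_IVF had 12.8, 12.6 and 12.3 CPM and NC 43.7, 25.3 and 18.2 CPM. With R2 left out of all groups edgeR called PPID at an adjusted p of 0.0128. With the R2 library of CM_EE left out it called NGLY1, a deglycosylating enzyme (13.5, 14.9 and 24.2 CPM in CM_EE_AI, 12.5, 45.6 and 80.7 CPM in CM_EE), at an adjusted p of 0.0272.

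Of the 12 lower genes, 6 had groups without overlap, as did 1.4% of all genes tested, but these 12 were chosen by low p and 1 direction at every R number, so the count is a description. SLC38A3, an amino acid transporter, had 1.44, 1.13 and 0.286 CPM in CM_EE_AI and 5.43, 2.36 and 2.29 CPM in CM_EE, without overlap (log2 fold change -1.89, interval -2.86 to -0.92). ATP8B1, a phospholipid flippase, had 75.4, 28.5 and 21.0 CPM in CM_EE_AI and 131, 53.7 and 28.3 CPM in CM_EE (log2 fold change -0.72, interval -1.14 to -0.31), with the groups overlapping because R2 was high in both. SLC35A3, a Golgi nucleotide sugar transporter, had 11.3, 4.02 and 4.58 CPM in CM_EE_AI and 16.2, 8.48 and 8.57 CPM in CM_EE, and was the lowest of the 4 groups at each number, as 86 genes were (0.454% of those tested). GSTO2, a glutathione transferase, and C8H8orf74 had log2 fold changes of -1.33 and -1.58 without overlap. IQCA1, TRIM36, a ubiquitin ligase, and SFI1, a centrosomal protein, had log2 fold changes of -0.95, -0.98 and -1.15.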

How the data were processed

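RNA of bovine corpus luteum was measured by sequencing. The authors deposited whole read counts per gene. The End columns were entered as estimated counts in the unit check, although these deposited values were whole, so no rounding changed them. Trim Galore, cutadapt, STAR, featureCounts and DESeq2 are named in the submitters' processing notes. Their versions, the build and the annotation are not known here, and of 19112 names 17386 (91.0%) matched a RefSeq symbol. The labels list a pair of titles per group for R4 and R5, and the deposited counts have 1 column, used as 1 library.

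All 12 corpus luteum libraries entered 1 edgeR quasi-likelihood fit of group and R number (6 residual degrees of freedom), TMM scaling, filterByExpr by group, Benjamini-Hochberg adjustment and a threshold of 0.05. Within-number differences used a prior count of 2. Intervals are 95%. The scripts were tested on simulated data. The R number marks libraries sharing a label. Their deviations from group means correlated at 0.108 to 0.449 between CM_EE_AI and CM_EE of the same number. Over all groups, 12 of 12 libraries correlated best with their own number. For R2 and R5 those best partners lay outside the compared groups. They were NC for CM_EE_AI (0.662 at R2, 0.426 at R5) and CM_EE_IVF for CM_EE (0.572 at R2, 0.605 at R5). The R5 libraries of CM_EE_AI and CM_EE correlated at 0.382, and only at R4 (0.449) were the compared libraries each other's best partner. The R2 libraries of CM_EE_AI and CM_EE correlated at 0.108, less than CM_EE_AI of R2 with CM_EE of R5 (0.198). The pairing of CM_EE_AI with CM_EE at R2 is therefore weakly supported.

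Named genes were up to 12 per direction by lowest p at 1 CPM or more with 1 direction at R2, R4 and R5, up to 3 per list, and a preset set; some genes this rule names are not reported here. TPGS1, NGLY1 and the genes high in 1 library were picked after their values were seen. Members, lists and rules were chosen with earlier results of these data known, so lists have counts and medians and no test. Alternatives were no block, 6 libraries alone, DESeq2, limma voom, DESeq2 size factors, other filters, RNA classes left out, and each library or number left out. The fits used edgeR 4.0.16, DESeq2 1.42.0 and limma 3.58.1 under R 4.3.3, and the plots matplotlib 3.10.9 with numpy 2.4.6 under Python 3.11.15.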

Additional observations from a re-analysis of the deposited data

How the results depend on the processing

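The number of genes past the threshold was 0 under 7 of the 8 alternatives that kept all libraries compared, and 1 under DESeq2. It ranged over 0 to 1 when a library or an R number was left out. Without the replicate block it was 0, with 242 genes at an unadjusted p under 0.05 and a lowest adjusted p of 1, and the block changed no call. With the 6 libraries alone the lowest adjusted p was 0.122. The median log2 fold change of all genes was 0.009 with DESeq2 size factors and between -0.015 and 0.120 over all alternatives.

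Of the list medians, that of complement genes was 0.058 without the block, 0.054 with the 6 libraries alone, 0.117 by DESeq2, 0.046 by limma voom, 0.123 with DESeq2 size factors and 0.354 at a minimum of 1 CPM in 3 libraries. With a library or number left out, medians ranged over 0.117 to 0.307 for complement, -0.024 to 0.376 for steroidogenesis, 0.10 to 0.682 for cholesterol synthesis, 0.099 to 0.324 for hormone receptors, 0.078 to 0.254 for interferon-stimulated genes, -0.121 to 0.361 for NF-kB targets, -0.056 to 0.183 for antigen presentation, -0.096 to 0.44 for antioxidant genes, -0.309 to 0.173 for prostaglandin genes, and, of markers, 0.269 to 0.532 for fibroblasts, 0.121 to 0.532 for smooth muscle and -0.227 to 0.176 for macrophages. The cause was not tested.

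ISG15 turned to -0.047 with the 6 libraries alone and -0.024 with DESeq2 or its size factors. FAS turned to -0.064 with the 6 libraries alone, -0.035 by DESeq2, -0.034 with its size factors, -0.012 by limma voom, -0.013 without the block and -0.002 at the 1 CPM minimum. NR4A1 turned to -0.002 with the 6 libraries alone and OXTR to 0.224 by limma voom. With a library or number left out, log2 fold changes that changed sign ranged over -0.329 to 0.679 for STAR, -0.034 to 0.767 for CYP11A1, -0.064 to 0.686 for PTGFR, -0.203 to 0.506 for PTGS2, -0.122 to 0.439 for VEGFA, -0.206 to 0.126 for TEK, -0.153 to 0.148 for ISG15, -0.046 to 0.387 for MX1, -0.085 to 0.228 for NR4A1, -0.593 to 0.122 for BAX, -0.073 to 0.088 for FAS, -0.038 to 0.339 for MMP2, -0.297 to 0.102 for CD9, -0.266 to 0.036 for KDR, -2.218 to 0.597 for OXTR, -0.39 to 0.091 for PGR and -0.807 to 0.033 for EDN1. RSAD2 ranged over 0.00 to 0.872, its lowest value being 0 to 2 decimals. In the fit of all 12 libraries the largest log2 fold change among the genes that changed sign was -0.77, for OXTR, and none of these genes passed the threshold.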

Other observations

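Single libraries held very high values for a few genes, picked here after their values were seen. For 47 genes of those tested, 1 of the 12 corpus luteum libraries had at least 10 CPM and at least 10 times the next highest library. Of these, 13 were in CM_EE_AI libraries and 16 in CM_EE libraries. ANKRD63 had 0.179, 0.113 and 0.191 CPM in CM_EE_AI and 1034, 0.168 and 0.0439 CPM in CM_EE, and FRAS1, a basement membrane protein, had 9.87, 1.93 and 3.58 CPM in CM_EE_AI and 975 CPM in the R2 library of CM_EE. UNKL had 1144 CPM in the R5 library of CM_EE_AI, against at most 39.9 CPM in any other. TPPP2, a tubulin-binding protein, had 156 CPM in the R2 library of CM_EE_AI, and MCEE, an enzyme of propionate metabolism, had 180 CPM in the R5 library of CM_EE_AI, against at most 3.39 and 5.44 CPM elsewhere. MYO15B and PPID, given above, were high in a pair of CM_EE libraries instead. The source of these values was not tested.

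Cholesterol synthesis genes together held 996, 5270 and 1850 CPM in CM_EE_AI libraries and 1010, 3100 and 1330 CPM in CM_EE libraries. CM_EE_IVF held 1610, 3480 and 2000 CPM and NC 1010, 2260 and 1920 CPM, so R4 was the highest number in each of the 4 groups.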
